A study of Mus musculus with 9 samples.

Results

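Chemokines are small secreted proteins that draw leukocytes along a gradient by binding G protein-coupled receptors, and acute phase genes encode secreted proteins whose levels rise in inflammation. Here 10 such genes were followed: the CC chemokines Ccl2 and Ccl7, the CXC chemokines Cxcl1, Cxcl5 and Cxcl12, the cytokines Il6 and Csf1, and the acute phase genes Lcn2, Saa3 and C3. They were taken by gene symbol from the 54232 genes of a mouse RNA-seq count file, and all 10 were present. They had been selected on their levels in primed, naïve and MEF libraries, so those levels are a description here and were not tested. Passage within each state was not named in that choice, and the tests are of passage.

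The libraries came from an OG2 embryonic stem cell line of C57 x CBA background, which carries GFP under the Oct4 distal promoter in every pluripotent group. Naïve mESCs were grown in S/L medium (serum with LIF), and primed mEpiSCs, converted from the naïve cells, in F/A medium (Fgf2 with Activin A). Both states were sampled at passage 5 (P5) and passage 15 (P15) with 2 libraries per group, and both were kept on a layer of mitomycin C-inactivated mouse embryonic fibroblasts (MEFs), the feeder cells. A single library was made from MEFs, and the labels do not say whether these had been inactivated. Naïve cells were passaged as single cells with trypsin and primed cells as clumps with collagenase IV, so medium and passaging method cannot be told apart from the state. All libraries of a state come from 1 line, and p-values measure the spread between the 2 libraries of a group only.

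Total counts lay between 14378051 and 20985136 in the pluripotent libraries, and the MEF library had 25646547. Levels are CPM, the counts of a gene relative to all counts of its library and scaled by TMM, an edgeR factor for differences in library composition. A gene without a count could be present at up to 3 counts, which is 0.128 to 0.221 CPM. The labelled states matched the sums of their markers. Summed over 10 naïve markers, levels were 2288 to 2706 CPM in naïve and 141 to 298 CPM in primed libraries, 10 primed markers summed to 635 to 684 CPM in naïve and 1793 to 2188 CPM in primed libraries, and 4 core pluripotency factors summed to 1.45 CPM in the MEF library. Not every primed marker followed its sum. At P5, Lefty1 (199 CPM in primed and 235 CPM in naïve cells) and Sfrp2 (12.5 and 16.5 CPM) were lower in primed cells. At P15 both were higher there (861 and 183 CPM for Lefty1, 15.2 and 11.7 CPM for Sfrp2). Fibroblast markers were detected in every pluripotent library. The sum of 30 fibroblast markers was 16524 to 26831 CPM in naïve and 11712 to 22310 CPM in primed libraries, against 103330 CPM in MEFs, and none of the 30 was at 0 counts. RNA of the feeder cells and of the pluripotent cells cannot be told apart in such bulk libraries, nor can fewer cells of a type and less RNA per cell.

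Ccl2 and Ccl7 act on monocytes through the receptor Ccr2, whereas Cxcl1 and Cxcl5 draw neutrophils through Cxcr2. Cxcl12, the ligand of Cxcr4 and Ackr3, is made constitutively by stromal cells. Many inflammatory genes are switched on by transcription factors of the NF-kB and C/EBP families and by STAT3, which Il6 activates through gp130 (Il6st). LIF, the cytokine of naïve medium, signals through the same gp130 chain.

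Ccl2 and Ccl7 are neighbours on GRCm38 chromosome 11, at 82035571 to 82037453 and 82045712 to 82047525, both on the plus strand and 8258 bp apart. Cxcl5 (90759360 to 90761624) and Cxcl1 (90891241 to 90893115) share the plus strand of chromosome 5, 129616 bp apart, and Il6 lies at 30013114 to 30019981 of the same chromosome. No exon of the 10 genes overlapped an exon of another annotated gene. The promoters of 7 of the 10 genes were matched in the RefSeq promoter table (build GRCm38.p6). The 150 bases before the start site are shown for a chemokine, a cytokine and a pair of acute phase genes, 5′ to 3′ on the gene's strand, because these carry the motif matches closest to the start sites. Capitals mark matches to the NF-kB motif in Cxcl1, to the C/EBP and then the NF-kB motif in Il6, and to the C/EBP motif in Saa3 and C3.
Cxcl1 (plus strand, chr5:90891095-90891244): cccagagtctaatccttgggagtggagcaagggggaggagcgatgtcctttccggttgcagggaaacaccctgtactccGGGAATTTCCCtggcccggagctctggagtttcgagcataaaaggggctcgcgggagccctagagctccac
Il6 (plus strand, chr5:30012964-30013113): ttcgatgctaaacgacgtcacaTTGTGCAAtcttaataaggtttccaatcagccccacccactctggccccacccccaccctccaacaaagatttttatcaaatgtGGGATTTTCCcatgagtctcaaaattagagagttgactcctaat
Saa3 (minus strand, chr7:46715677-46715826): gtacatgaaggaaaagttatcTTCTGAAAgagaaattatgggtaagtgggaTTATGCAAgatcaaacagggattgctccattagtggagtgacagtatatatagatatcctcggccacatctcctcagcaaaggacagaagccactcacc
C3 (minus strand, chr17:57228137-57228286): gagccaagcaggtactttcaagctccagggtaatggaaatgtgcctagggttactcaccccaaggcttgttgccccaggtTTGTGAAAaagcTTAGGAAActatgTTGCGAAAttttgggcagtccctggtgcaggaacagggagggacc

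Both strands of the 250 bases before the start were searched, except for TATAAA, which was searched on the gene's strand only. The NF-kB motif was found in 3 of the 7 promoters (Cxcl1, Il6 and Csf1), where 7.25% of 32851 promoters hold it. In Cxcl1 its match is a pair of overlapping sites, the outer of which begins 71 bases before the start, and in Il6 the match begins 44 bases before it. The C/EBP motif (TTNNGNAA) was found in 4 of 7, namely Saa3 with 4 matches, C3 with 3, and Lcn2 and Il6 with 1 each, where 36.8% of all promoters hold it. The STAT motif (TTCNNNGAA) had no match in the 7 (7.02% of all promoters), and the AP-1 motif (TGANTCA) had 1, in Il6 (6.75%). The letters TATAAA, of the TATA box, were in none of them (7.59%). Variants of these letters, such as cataaaa in Cxcl1 and tatatata in Saa3, were not counted. Cxcl12 had no match to any of the 5 motifs. These matches are a description of the letters and not of bound sites.

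Ccl2, a monocyte attractant, was by far the most abundant of the chemokines in primed cells. Its level was 18.3 and 15.8 CPM in the naïve P5 libraries, 14.6 and 15.7 CPM at naïve P15, 292 and 294 CPM at primed P5, 389 and 397 CPM at primed P15, and 30.5 CPM in MEFs. All 4 primed libraries lay above MEFs and all 4 naïve libraries below. The primed mean was 17.2 times the naïve mean at P5 and 25.9 times at P15. Ccl7, the neighbouring gene with related function, stood in the same order. It was at 17.7 and 15.7 CPM, then 16 and 15.4 CPM, in naïve cells at P5 and P15, at 131 and 143 CPM, then 238 and 239 CPM, in primed cells, and at 29.9 CPM in MEFs. Its primed over naïve ratio was 8.23 at P5 and 15.2 at P15, so the 2 neighbours had like naïve levels and parted in primed cells. Across the 9 libraries, which share cell line and culture, log2 levels of the pair correlated at r = 0.99.

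Cxcl1 and Cxcl5, both neutrophil attractants, were higher in primed than in naïve cells but followed passage differently. Cxcl1 was at 12 and 11.1 CPM in naïve P5, 6.85 and 6.33 CPM in naïve P15, 47.1 and 50.9 CPM in primed P5, 50.9 and 51.6 CPM in primed P15, and 1.23 CPM in MEFs (95% Poisson interval 0.826 to 1.77, counting error only). Every pluripotent library was above MEFs, the naïve ones included. Cxcl5 was at 2.34 and 2.57 CPM in naïve P5 and 2.06 and 1.34 CPM in naïve P15. In primed cells it was at 11.9 and 10.4 CPM at P5 and at 43.0 and 46.9 CPM at P15, with 1.87 CPM in MEFs (1.36 to 2.51). The naïve levels of Cxcl5 thus lay close to the MEF level, and the primed groups did not overlap with each other. Primed over naïve ratios were 4.25 and 7.78 for Cxcl1 and 4.54 and 26.4 for Cxcl5 at P5 and P15.

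Cxcl12 had the opposite order. The stromal chemokine was highest in MEFs at 471 CPM (462 to 480.1), against 40.9 and 39.6 CPM in naïve P5, 79.2 and 78.0 CPM in naïve P15, 22.3 and 22.1 CPM in primed P5 and 65.0 and 66.4 CPM in primed P15. Naïve means were 1.81 times the primed mean at P5 and 1.20 times at P15. Its levels ranked as did the summed fibroblast markers in the same groups, with primed P5 lowest, then naïve P5, primed P15, naïve P15 and MEFs.

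The cytokine genes differed little between the states. Il6, the inducer of the hepatic acute phase response, was low throughout, at 4.43 and 3.66 CPM in naïve P5, 5.30 and 4.92 CPM in naïve P15, 6.31 and 5.66 CPM in primed P5, 4.53 and 5.57 CPM in primed P15, and 2.17 CPM in MEFs (1.61 to 2.85). The naïve P15 and primed P15 libraries overlapped. Csf1, the growth factor of macrophages, was abundant and near level: 209.9 and 212 CPM in naïve P5, 236 and 226 CPM in naïve P15, 224 and 216 CPM in primed P5, 209 and 211 CPM in primed P15, and 259 CPM in MEFs (252 to 265). Its primed over naïve ratio was 1.05 at P5 and 0.909 at P15.

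The acute phase genes were low in naïve and clearly present in primed libraries. Lcn2, which encodes the siderophore-binding protein lipocalin 2, had 1 count in 1 naïve P5 library and 0 counts in the other 3 naïve libraries. In primed cells it was at 39.4 and 34.4 CPM at P5 and 23.2 and 23.2 CPM at P15, and in MEFs at 0.553 CPM (0.294 to 0.945). The P5 ratio of 1484 rests on that 1 naïve count (95% counting interval 266 to 58663). At P15, primed cells were at least 112-fold higher, taking the floor of 3 counts in each naïve library. Saa3, a serum amyloid A made outside the liver, was at 0.995 and 0.346 CPM in naïve P5, 1.55 and 0.576 CPM in naïve P15, 24.6 and 20.4 CPM in primed P5, 40.9 and 40.7 CPM in primed P15, and 0.851 CPM in MEFs (0.520 to 1.31). Its primed over naïve ratios of 33.6 and 38.4 rest on 7 to 21 counts per naïve library. With 1 library left out, the log2 difference ranged from 4.50 to 6.0 at P5 and from 4.68 to 6.10 at P15. C3, the central component of complement, was at 1.49 and 1.63 CPM in naïve P5 and 0.368 and 0.448 CPM in naïve P15, the latter 5 and 7 counts. It was at 86.9 and 83.9 CPM in primed P5, 74.8 and 78.7 CPM in primed P15 and 16.2 CPM in MEFs (14.6 to 17.9). Every naïve library was below MEFs and every primed library above, and primed over naïve ratios were 54.6 at P5 and 188 at P15.

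**Figure D1:**
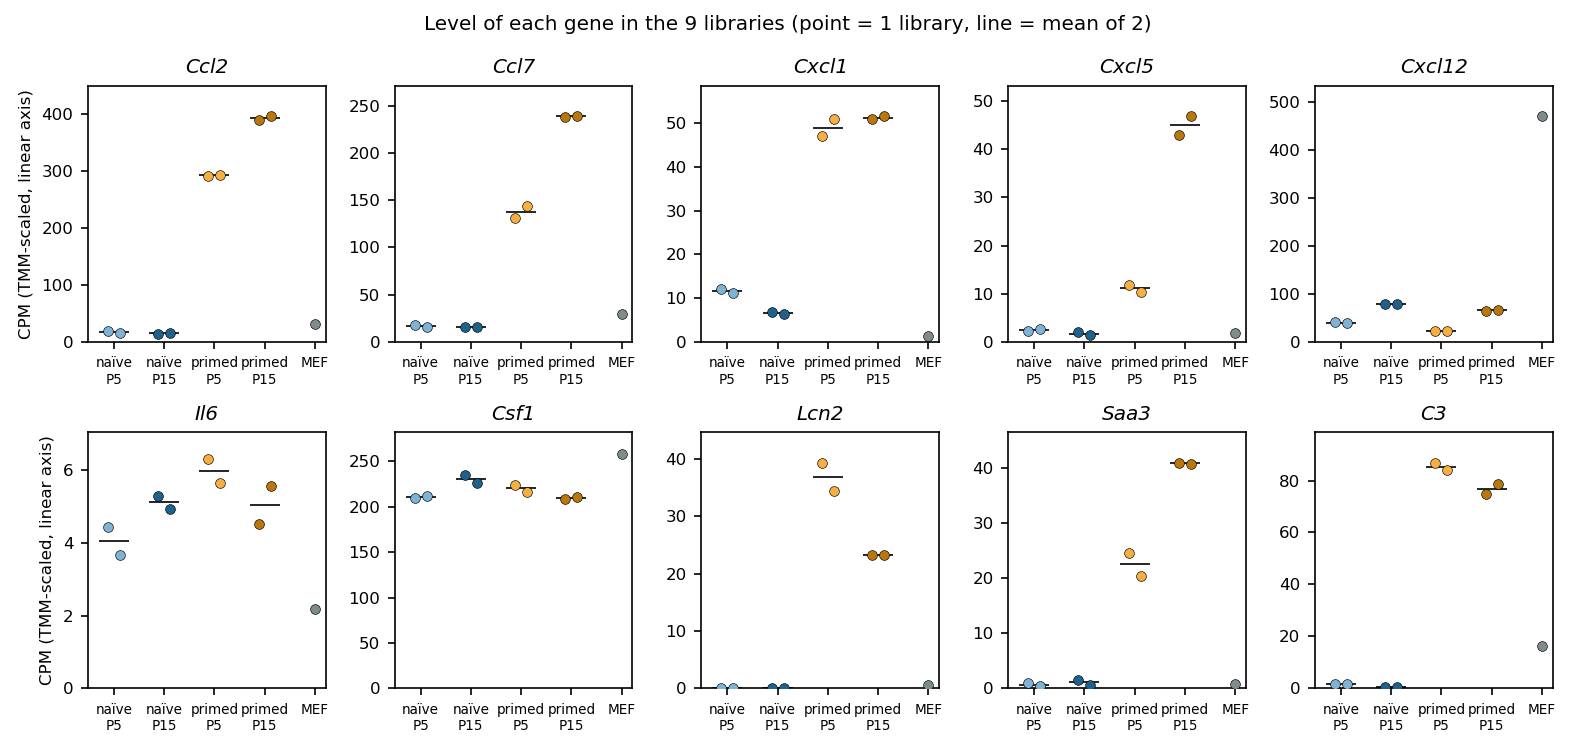
Level of each of the 10 genes (y axis, TMM-scaled CPM, linear and from 0) in the 9 libraries, grouped on the x axis as naïve P5, naïve P15, primed P5, primed P15 and MEF; a point is 1 library and a line the mean of 2. Ccl2 reaches 389 and 397 CPM in primed P15 against 30.5 CPM in MEFs, whereas Cxcl12 is highest in MEFs at 471 CPM and Csf1 stays between 209 and 259 CPM.

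For 7 of the 10 genes (all but Cxcl12, Il6 and Csf1) the primed level was at least 2-fold above the naïve level at both passages, and Cxcl12 was lower by under 2-fold. These counts are no test, because the genes were chosen on these levels, and nothing is read from them. For scale, the fit across all genes called 13.5% of genes at least 2-fold higher in primed cells at P5 and 12.2% at P15, and 8.85% and 11.0% at least 2-fold lower, at an adjusted p under 0.01. Per kilobase of exonic length, primed P5 levels ran from Ccl2 (257 CPM per kb) and Ccl7 (172), which lay well above the others, through Csf1 (41.7), Cxcl1 (26.1), C3 (16.6), Lcn2 (14.1), Saa3 (8.64) and Cxcl5 (5.99), to Cxcl12 (2.72) and Il6 (2.46). In MEFs the order per kilobase was led by Cxcl12 (57.6 CPM per kb), Csf1 (49.0), Ccl7 (37.3) and Ccl2 (26.8). Mean naïve P5 levels per kilobase were 39.9 for Csf1, 20.8 for Ccl7 and 15 for Ccl2.

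The MEF library gives the level of each gene in the cell type used as feeders, without replicates. In primed cells 8 of the 10 genes were above their MEF level at each passage (all but Cxcl12 and Csf1). With library size as the only scaling, 9 were above it at primed P5, where Csf1 passed MEFs too. The share of all genes above MEFs was not counted, and the 10 were chosen on these levels. Nothing is read from these counts or from those of naïve cells. The largest ratios at primed P5 were those of Lcn2 (66.7), Cxcl1 (39.7) and Saa3 (26.5), and at primed P15 those of Saa3 (48.0), Lcn2 (42.0) and Cxcl1 (41.6). Ccl2 was at 9.62 and 12.9 times its MEF level at P5 and P15, Ccl7 at 4.60 and 7.99 times, Cxcl5 at 5.96 and 24.0 times, C3 at 5.28 and 4.75 times and Il6 at 2.76 and 2.33 times.

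For the 30 fibroblast markers, the same ratio had a median of 0.146 in primed P5, 0.253 in primed P15, 0.174 in naïve P5 and 0.216 in naïve P15. Only Dcn was above its MEF level at primed P5 (2.18 times), and 3 markers were at primed P15, with Dcn highest (3.47 times). All 8 genes above MEFs exceeded the highest marker ratio at primed P5, and 7 of them did so at P15, where Il6 did not. In naïve cells 3 genes were above MEFs at P5 (Cxcl1, Cxcl5 and Il6) and 3 at P15 (Cxcl1, Il6 and Saa3). Of these, Cxcl1 had ratios of 9.35 and 5.34 and Il6 of 1.86 and 2.36, while the naïve levels of Cxcl5 and Saa3 lay inside the counting intervals of their MEF levels for at least 1 library at each passage. Cxcl12 was at 0.0472 to 0.167 times its MEF level in the 4 groups, inside the range of the fibroblast markers. Feeder cells kept beside pluripotent cells were not sequenced alone, and whether they express these genes as the MEF library does was not tested.

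**Figure D2:**
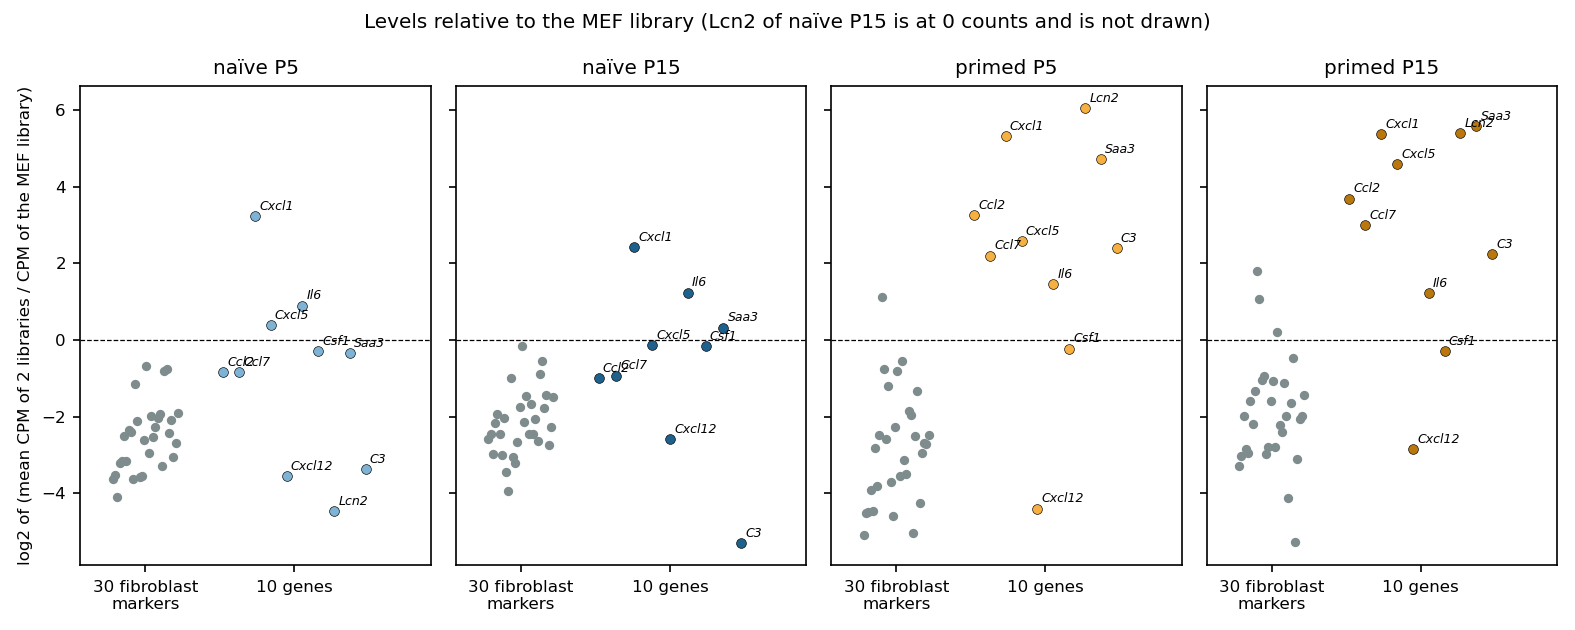
Ratio of the mean level of 2 libraries to the level of the MEF library (y axis, log2) for 30 fibroblast markers (grey, 1 point per gene) and the 10 genes (coloured, named), in naïve P5, naïve P15, primed P5 and primed P15; the dashed line is the MEF level. In primed P5, 8 of the 10 genes lie above all fibroblast markers, the highest of which is Dcn at 2.18 times MEF, and Cxcl12 lies at 0.0472 times MEF. The 10 genes were chosen on these levels, so their place is a description and no test.

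Cells that receive or make these signals were looked for by their markers. Of 15 macrophage and monocyte markers, 4 to 10 were at 3 or fewer counts in each pluripotent library, and their summed level was 57.2 to 60.7 CPM in naïve, 38.5 to 38.7 CPM in primed P5 and 20.8 to 21.5 CPM in primed P15 libraries. The MEF library held 229 CPM of them, with none at 0. Laptm5 made up most of the naïve sums, with means of 45.5 and 43.7 CPM at P5 and P15. In primed cells it was at 6.998 and 2.63 CPM. Not every marker followed the sum. At P5, Cd68 was at 11.7 CPM in naïve and 25.9 CPM in primed cells, and Lyz2 at 1.07 and 3.47 CPM. At P15, Cd68 was at 8.25 and 6.54 CPM, and Lyz2 at 3.12 and 7.93 CPM. The sum of 8 neutrophil markers was at most 4.83 CPM in any library. The 10 visceral endoderm and hepatocyte markers summed to 4.16 to 18.8 CPM in naïve, 84.4 to 113 CPM in primed and 52.4 CPM in MEF libraries. Foxa2 (means of 48.1 and 87.7 CPM at P5 and P15) and Sox17 (28.8 and 16.3 CPM) made up most of the primed sums. Cubn and Amn went the other way. At P5, Cubn was at 13.0 CPM in naïve and 0.694 CPM in primed cells, and Amn at 2.78 and 1.29 CPM. At P15, Cubn was at 1.18 and 0.771 CPM, and Amn at 1.11 and 0.771 CPM. The 7 endothelial markers summed to 51.9 to 73.2 CPM in naïve, 6.87 to 17.7 CPM in primed and 11.95 CPM in MEF libraries. Pecam1 made up most of the naïve sums, with means of 59.2 and 47.5 CPM at P5 and P15. In primed cells it was at 10.4 and 1.20 CPM. Cdh5 went the other way, with 0.248 CPM in naïve and 1.71 CPM in primed cells at P5. At P15 it was at 0 and 2.69 CPM. The part of these cell types in the levels above was not tested.

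Passage within a state was tested with edgeR's quasi-likelihood test on counts, adjusted over all genes tested. From P5 to P15 in primed cells, 4 chemokines and an acute phase gene rose. A pair of acute phase genes fell, of which C3 passed only narrowly. Of the 10 genes, 5 were higher, against 24.3% of 15957 genes tested, and 2 were lower, against 22.8%. At a change of at least 2-fold, 2 were higher (Cxcl5 and Cxcl12, against 3.18% of all genes), while the decreases were under 2-fold, a size that 8.43% of all genes passed. The median log2 change of the 10 was 0.21, against −0.0012 over all genes.

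Cxcl5 rose most, from 11.2 ± 1.03 to 45.0 ± 2.75 CPM (mean ± SD over 2 libraries), which was 1.98 ± 0.099 on the log2 scale (± standard error, edgeR adjusted p = 7.04e-16). Cxcl12 rose from 22.2 ± 0.128 to 65.7 ± 0.944 CPM, by 1.53 ± 0.076 on the log2 scale (edgeR adjusted p = 8.86e-16). Ccl7 rose by 0.77 ± 0.053 (adjusted p = 1.96e-12) and Ccl2 by 0.39 ± 0.046 (adjusted p = 4.91e-08), so the smaller of the 2 neighbours in CPM gained more. Cxcl1, the other neutrophil attractant, was at 49.0 and 51.3 CPM on average and did not pass (0.035 ± 0.070, adjusted p = 0.687). The acute phase genes split. Saa3 rose from 22.5 ± 2.96 to 40.8 ± 0.170 CPM (0.82 ± 0.088, adjusted p = 8.63e-09), whereas Lcn2 fell from 36.9 ± 3.47 to 23.2 ± 0.045 CPM (−0.70 ± 0.087, adjusted p = 1.07e-07). C3 passed narrowly with a small decrease, from 85.4 ± 2.12 to 76.8 ± 2.80 CPM (−0.19 ± 0.060, adjusted p = 0.00950), and this call was lost under 4 of the alternative settings and without either primed P5 library or without primed P15 replicate 1 (adjusted p 0.0193 to 0.0774 in those 3). Il6 (−0.28 ± 0.18, adjusted p = 0.191) and Csf1 (−0.10 ± 0.049, adjusted p = 0.0785) did not pass.

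In naïve cells, passage moved fewer of the genes. Of the 9 tested (Lcn2 had too few counts), 1 was higher, against 4.21% of 15683 genes, and 1 was lower, against 5.01%. Cxcl12 rose from 40.3 ± 0.949 to 78.6 ± 0.861 CPM (0.97 ± 0.060 on the log2 scale, edgeR adjusted p = 2.61e-07). Cxcl1 fell from 11.5 ± 0.637 to 6.59 ± 0.367 CPM (−0.81 ± 0.14, adjusted p = 0.00179), a call that was lost without naïve P15 replicate 2 (−0.74, adjusted p = 0.0131). C3 had the largest difference of the 9, at −1.91 ± 0.49, but did not pass (adjusted p = 0.0112). The changes of Ccl2 (−0.17, adjusted p = 0.355), Ccl7 (−0.089, adjusted p = 0.637), Cxcl5 (−0.54, adjusted p = 0.268), Il6 (0.34, adjusted p = 0.286), Saa3 (0.63, adjusted p = 0.515) and Csf1 (0.13, adjusted p = 0.0556) did not pass either.

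Fibroblast markers moved with passage as well. Of the 30, 24 rose and 2 fell (Acta2 and Fn1) in primed cells, with a median log2 change of 0.85, and 18 rose and 2 fell (Dcn and Pdgfra) in naïve cells, with a median of 0.43. Over all genes, 24.3% rose and 22.8% fell in primed cells, and 4.21% rose and 5.01% fell in naïve cells. The changes of Cxcl12, at 1.53 and 0.97, stood beside these. Postn, an extracellular matrix gene among these markers, went from 114 to 396 CPM in primed and from 232 to 429 CPM in naïve cells. The part of feeder RNA in the change of any single gene was not tested. With the lowest marker ratio of each library taken off as feeder RNA, the 5 increases and 2 decreases in primed cells still passed, and the change of Cxcl12 came to 2.53 in primed and 1.92 in naïve cells. With the median ratio taken off, no counts of Cxcl12 were left to test, while Cxcl5, Ccl7, Ccl2, Saa3 and Lcn2 still passed and C3 did not.

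**Figure D3:**
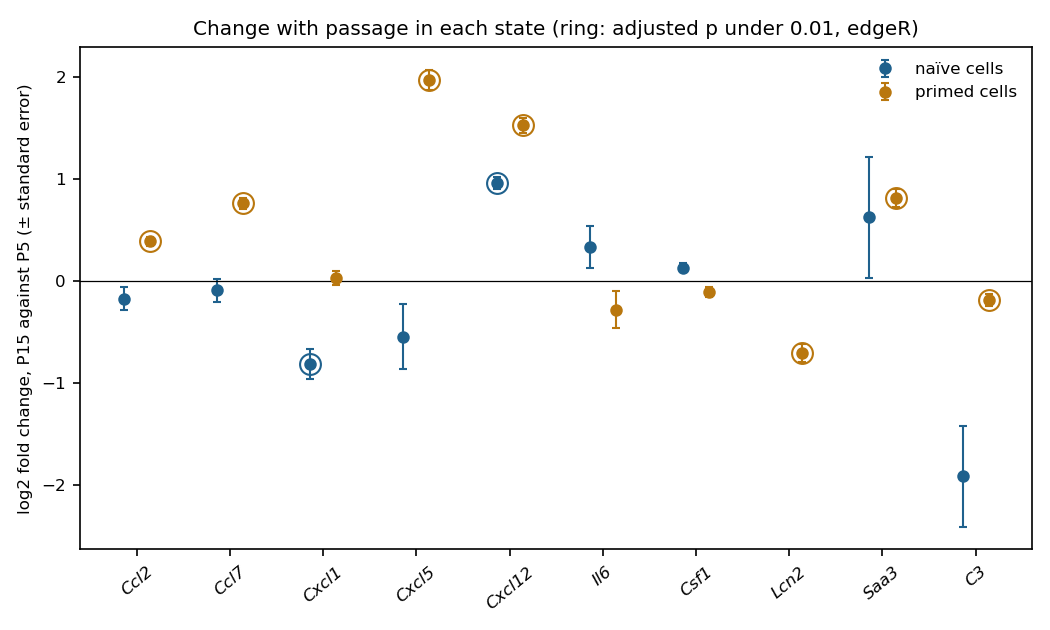
Change from P5 to P15 (y axis, log2 fold change ± standard error, edgeR) of the 10 genes (x axis) in naïve and primed cells; a ring marks an adjusted p under 0.01, and Lcn2 was not tested in naïve cells. Cxcl5 shows the largest primed change at 1.98 and lies at −0.54 in naïve cells, while Cxcl12 rises in both states.

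Whether passage acted differently in the states was tested as an interaction in 1 fit of the 8 pluripotent libraries. The passage effect was higher in primed than in naïve cells for 6 of the 10 genes, against 13.3% of 16926 genes tested, and lower for 1, against 10.8%. The difference was 2.53 ± 0.29 for Cxcl5 on the log2 scale (edgeR adjusted p = 1.06e-08), 0.86 ± 0.11 for Ccl7 (adjusted p = 1.65e-07), 0.57 ± 0.097 for Cxcl12 (adjusted p = 2.17e-05), 0.85 ± 0.15 for Cxcl1 (adjusted p = 3.17e-05) and 0.57 ± 0.10 for Ccl2 (adjusted p = 4.63e-05, and 0.94 with the median marker ratio taken off). These 5 chemokines therefore differed in their passage effect, of which Cxcl1 fell in naïve cells and did not pass in primed cells. Fibroblast markers differed too, in both directions. Postn (0.89) and Col1a2 (0.36) had the direction of Cxcl12, whereas Acta2 (−1.68) and Fn1 (−0.81) had the other. The part of feeder RNA in the Cxcl12 difference was not tested. For C3 the difference was 1.73 ± 0.43 (adjusted p = 5.09e-04) and rests on naïve levels of 5 to 33 counts, with 6.33 when the lowest and −0.034 (adjusted p = 1.0) when the median marker ratio was taken off as feeder RNA. Csf1 had a small difference in the other direction (−0.23 ± 0.065, adjusted p = 0.00678), lost under 10 of 15 alternative settings. Il6 (−0.61, adjusted p = 0.0857), Saa3 (0.21, adjusted p = 0.778) and Lcn2 (adjusted p = 0.546, with 1 naïve count in all) did not pass. With 1 library left out the Saa3 difference ranged from −0.72 to 1.04, so its direction was not determined.

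The remaining genes of these families were followed as lists. Among 17 other CC chemokines, 9 could be tested for passage in primed cells, of which 5 rose and Ccl20 fell, where 24.3% of all genes tested rose and 22.8% fell. Some met the filter of 10 counts only through the passage where they are high. These were Ccl6, Ccl12 (means of 0.127 CPM at P5 and 1.28 CPM at P15) and Ccl20 (1.66 and 0.513 CPM). The counts of this list are therefore not read as a result. Ccl8, a monocyte attractant encoded near Ccl2 and Ccl7, went from 0.894 and 1.61 CPM to 7.80 and 9.09 CPM (log2 change 2.74, edgeR adjusted p = 2.24e-10). Ccl11, an eosinophil attractant, went from 3.58 and 3.44 CPM to 9.24 and 11.3 CPM (1.52, adjusted p = 2.44e-08), and Ccl5, a T cell attractant, from 9.59 and 11.3 CPM to 18.3 and 19.0 CPM (0.81, adjusted p = 1.27e-06). Ccl6 rose too, from 0 and 1 count to 1.26 and 1.19 CPM. In naïve cells 3 of the list could be tested and only Ccl5 passed, lower at P15 (−3.09, adjusted p = 0.00204). Its mean went from 1.51 to 0.174 CPM, the latter under the 3-count floors of the naïve P15 libraries (0.221 and 0.192 CPM). The size of this change therefore rests on few counts.

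Among 14 other CXC, CX3C and XC chemokines, 7 were tested in primed cells, with 2 higher and 3 lower at P15 (all genes: 24.3% and 22.8%). Cxcl10, an interferon-inducible attractant of T cells, rose (0.85, edgeR adjusted p = 1.97e-08) from 16.5 and 15.1 CPM to 28.2 and 30.2 CPM, while in naïve cells it fell (−1.44, adjusted p = 0.00137) to 1.92 and 1.66 CPM. Cxcl14 rose in primed (1.46, adjusted p = 2.39e-09) and naïve cells (1.07, adjusted p = 1.14e-05) and, like Cxcl12, was highest in MEFs at 98.9 CPM. Cxcl2, a close relative of Cxcl1, fell in primed cells from 7.70 and 7.60 CPM to 2.41 and 2.61 CPM (−1.64, adjusted p = 5.68e-08), as did the membrane-bound Cx3cl1 (−0.81, adjusted p = 4.99e-09).

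The receptors Ccr2 and Cxcr2 were at or near 0. Ccr2 had at most 1 count in any pluripotent library, and Cxcr2 was at most 0.398 CPM. Of 22 receptors only 5 could be tested in primed cells, of which 2 rose and 2 fell (all genes: 24.3% and 22.8%). Cxcr4, the signalling receptor of Cxcl12, fell with passage from 20.2 and 17.0 CPM to 9.93 and 11.3 CPM (−0.84, edgeR adjusted p = 1.01e-06), whereas the scavenging receptors Ackr3 (0.84, adjusted p = 5.16e-07) and Ackr4 (1.18, adjusted p = 1.84e-08) rose. Csf1r, the receptor of Csf1, stayed at or under 0.998 CPM in pluripotent libraries and was at 15.8 CPM in MEFs.

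Of the interleukin 6 family and its receptors, 11 were tested in primed cells, with 3 higher and 4 lower at P15, against 24.3% and 22.8% of all genes. Il6st, the shared signalling chain, was at 129.5 to 179 CPM in all pluripotent libraries, and Il6ra, which confers binding of Il6, at 5.08 to 10.7 CPM. Lif fell in primed cells from 105 and 109 CPM to 57.2 and 60.6 CPM (−0.89, edgeR adjusted p = 1.22e-12) and in naïve cells from 41.3 and 41.5 CPM to 28.9 and 27.8 CPM (−0.55, adjusted p = 2.64e-04). Osmr, the oncostatin M receptor, rose in primed cells (0.58, adjusted p = 3.55e-08).

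Other acute phase genes rose in primed cells with passage in 4 of the 7 tested out of 20 listed, against 24.3% of all genes. Steap4, a metalloreductase, went from 7.40 and 8.26 CPM to 87.6 and 96.1 CPM (log2 change 3.52, edgeR adjusted p = 6.81e-22), against 0.766 CPM in MEFs. Cp, which encodes the ferroxidase ceruloplasmin, went from 38.4 and 36.1 CPM to 113 and 116 CPM (1.59, adjusted p = 1.17e-17), and the haemoglobin-binding Hp from 2.73 and 2.11 CPM to 15.1 and 14.5 CPM (2.57, adjusted p = 4.82e-13). The protease inhibitor Serpina3n rose less (0.71, adjusted p = 5.60e-07). In naïve cells Cp fell (−1.39, adjusted p = 5.36e-04). Lcn2, which fell in primed cells, thus had a direction opposite to that of these 4 and of Saa3. C3 also fell, but its small decrease passed narrowly and was lost under several alternative settings.

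**Figure D4:**
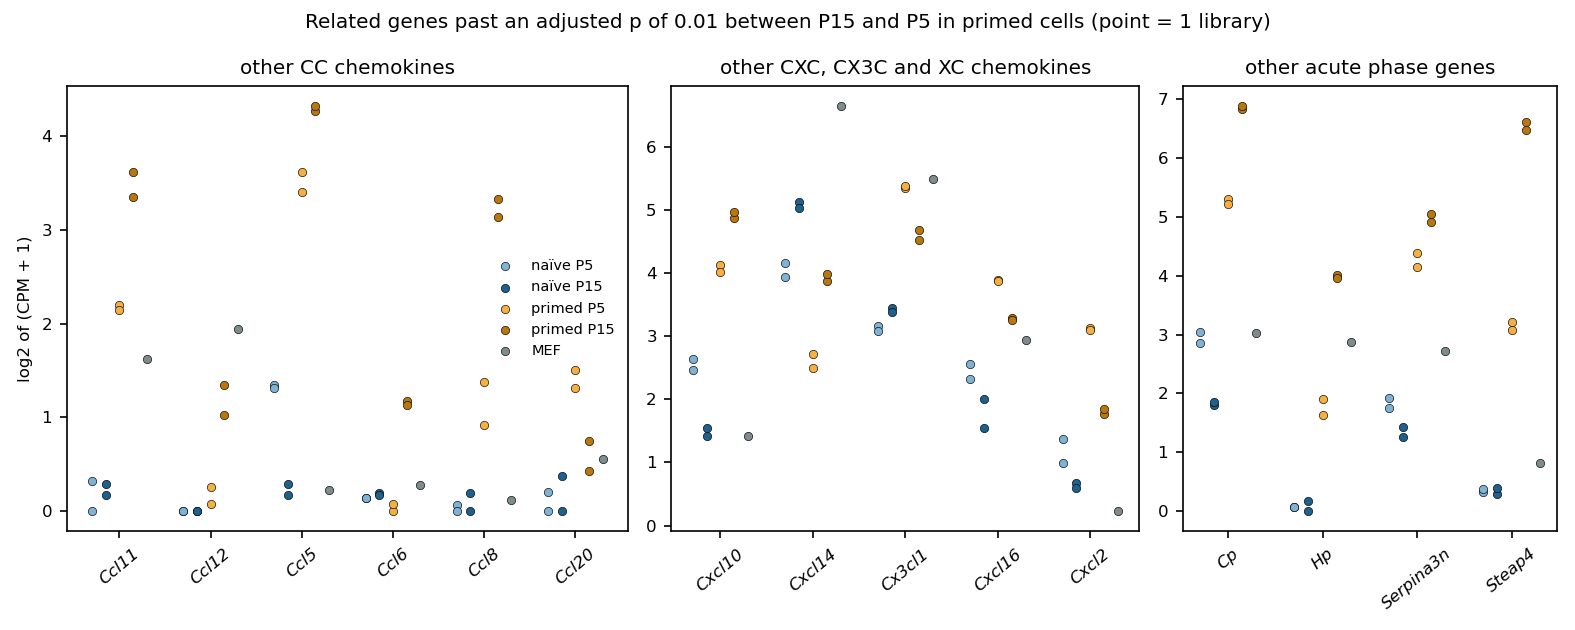
Levels (y axis, log2 of CPM + 1) of the other CC chemokines, other CXC, CX3C and XC chemokines and other acute phase genes that passed an adjusted p of 0.01 between P15 and P5 in primed cells; a point is 1 library, coloured by naïve P5, naïve P15, primed P5, primed P15 and MEF. Steap4 moves from 7.40 and 8.26 CPM to 87.6 and 96.1 CPM in primed cells, while Cxcl14 is highest in MEFs at 98.9 CPM.

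Of 25 other complement genes, 12 were tested in primed cells, with 6 higher and 1 lower, against 24.3% and 22.8% of all genes. The protease gene C1ra (1.25, edgeR adjusted p = 3.17e-10) and its inhibitor Serping1 (1.12, adjusted p = 8.65e-10) rose, and Cd55, which protects cells from complement, fell from 70.7 and 69.1 CPM to 29.3 and 32.2 CPM (−1.22, adjusted p = 5.21e-14). Cd55 fell in naïve cells too (−0.79, adjusted p = 1.52e-04), where 1 of 12 rose (Masp1, 0.45, adjusted p = 0.00193).

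The regulators named above were expressed in every library. Of 17 NF-kB subunits and feedback genes, 5 rose and 5 fell with passage in primed cells, and 4 fell in naïve cells. The shares over all genes were 24.3% and 22.8% in primed cells, close to those of the list, and 5.01% lower in naïve cells. Nfkbiz, a co-activator of Lcn2 and Il6 transcription, rose in primed cells from 50.3 and 49.4 CPM to 72.0 and 75.2 CPM (0.53, edgeR adjusted p = 7.42e-08) and fell in naïve cells from 41.3 and 39.6 CPM to 27.3 and 26.7 CPM (−0.58, adjusted p = 1.96e-04). Tnfaip3, an inhibitor of the pathway, fell in both (−0.63 and −0.55, adjusted p = 2.07e-05 and 0.00940). Of the 7 C/EBP and STAT3 factors, 4 rose and 3 fell in primed cells (all genes: 24.3% and 22.8%). Cebpd rose from 39.95 and 43.2 CPM to 73.4 and 66.3 CPM (0.72, adjusted p = 2.20e-09) and Cebpb by 0.47 (adjusted p = 2.32e-07), while Pim1, a STAT3 target, fell by 1.03 (adjusted p = 7.70e-14). Socs3, the feedback inhibitor of gp130 signalling, rose in primed (0.37, adjusted p = 2.96e-06) and fell in naïve cells (−0.27, adjusted p = 0.00441). Of 22 other cytokine response genes, 8 rose and 7 fell of the 20 tested in primed cells, and 3 fell of the 18 tested in naïve cells, against 24.3% and 22.8% of all genes in primed and 5.01% lower in naïve cells. Ptgs2, the inducible cyclooxygenase, fell in primed cells from 291 and 299 CPM to 138 and 147 CPM (−1.08, adjusted p = 5.58e-16), and Sod2, a mitochondrial superoxide dismutase, rose (0.77, adjusted p = 3.24e-11).

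Levels of the 10 genes fell into patterns over the 9 libraries, given as Pearson's r of log2 of CPM + 1 with no test, since the libraries share line, culture and the contrast of states. Ccl2 correlated with Ccl7 (0.99), Lcn2 (0.99), Saa3 (0.98), C3 (0.96) and Cxcl5 (0.93). Cxcl12 ran with Csf1 (0.74) and against Il6 (−0.80) and Cxcl1 (−0.75). Among all genes of at least 10 CPM in a library, the gene most like Cxcl12 was Postn (0.998), followed by Lrrc17 (0.996) and Col1a2 (0.996), a collagen chain. The closest to Lcn2 were Slc39a8 (0.9995), which encodes a zinc transporter, Cyp26a1 (0.998), a retinoic acid hydroxylase, and Hmga2 (0.997). The closest to Ccl2 were Slc5a3, Tubb4a and Mmp12 (0.995 to 0.996), to Ccl7 Chrd, Camk1g and Mr1 (0.996 to 0.997), and to Cxcl5 Nrcam, Ly6e and Ppp4r4 (0.994 to 0.996). Cxcl1 was most like the growth factor gene Bmp7 (0.996), Slco4a1 and the transcription factor gene Eomes (0.994). Saa3 was most like Gsc (0.994), a homeobox gene, followed by Vangl2 and Mogat2. C3 was most like Selenop (0.996), Snn and Camkk1. Csf1 was most like Tvp23b (0.967), Itga7 and Dynlt1a.

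AU-rich elements in 3′ untranslated regions are a further feature of cytokine transcripts, known to shorten their life. Counted over the longest annotated 3′ untranslated region, the pentamer ATTTA was densest in Cxcl1 (11.8 per kb, 7 copies), followed by Il6 (6.0), Ccl7 (4.60), Cxcl5 (4.50) and Ccl2 (3.64). Csf1 (1.89), Saa3 (1.53) and Cxcl12 (0.771) lay near the median of 20954 genes, which was 1.25 per kb, and C3 and Lcn2 had none. The nonamer TTATTTATT occurred in 1 of the 10 genes, Cxcl1 with 2 copies, and in 7.68% of all genes. These counts were read from the annotation and not measured in these libraries.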

How the data were processed

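RNA-seq of 9 libraries was analysed: 2 for each state and passage, and 1 of MEFs. Polyadenylated RNA was selected with poly-T beads and made into libraries with the NEBNext Ultra kit of NEB for Illumina sequencing. The authors trimmed reads with Cutadapt, aligned them to mm10 (HISAT2), and used featureCounts for the read number of each Ensembl gene. The authors deposited these as raw, whole-number counts without normalisation. The strand setting, the annotation release and the treatment of multiply mapped reads are not given in the sources used here, so reads of near-identical relatives may be shared. The RNA protocol does not say whether feeder cells were removed. The 92 spike-in rows held 0 counts and were left out. Samples were grouped by their titles. Gene names came from GENCODE M21, which held 54165 of the 54232 identifiers.

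Counts were fitted with edgeR 4.0.16 in R 4.3.3 (quasi-likelihood test, TMM, at least 10 counts in at least 2 libraries), with Benjamini-Hochberg adjustment over all genes tested and a threshold of 0.01 on the adjusted p. The script was tested on simulated data. CPM used TMM factors over 9 libraries, and SD is over 2 libraries. Replicates differed beyond counting noise (chi-square per gene 2.10 to 3.28). The genes and all lists were chosen with earlier results of these data known. Of each list, at most 4 genes of smallest adjusted p per passage comparison and 3 of highest mean level were named. Ccl20, Ccr2, Cxcr2, Il6ra, Acta2, Fn1, Pdgfra, Postn, Dcn, Laptm5, Cd68 and Lyz2 were named after their values were seen. So were Ccl12, Lefty1, Sfrp2, Foxa2, Sox17, Cubn, Amn, Pecam1 and Cdh5. Alternatives were DESeq2 1.42.0 size factors and its Wald test, library size alone, no filter, a fit of 8 libraries, a replicate block, subtraction of feeder RNA by the median or lowest fibroblast marker ratio, and each library left out. Intervals cover counting error only.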

Additional observations from a re-analysis of the deposited data

Results flagged for a closer look

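The effect of passage (P15 against P5, log2) differed between primed and naïve cells for 7 of the 10 genes by the interaction test of edgeR, adjusted over all genes tested. Of all 16926 genes tested, 13.3% had a higher and 10.8% a lower passage effect in primed cells. The difference, primed minus naïve, was 2.53 for Cxcl5, 0.86 for Ccl7, 0.57 for Ccl2, 0.57 for Cxcl12, 0.85 for Cxcl1, 1.73 for C3 and −0.23 for Csf1. Adjusted p-values ranged over the 15 alternatives from 4.92e-17 to 2.94e-05 for Cxcl5, from 2.85e-14 to 3.44e-05 for Ccl7, from 1.17e-07 to 0.00307 for Ccl2 and from 9.69e-07 to 8.22e-04 for Cxcl1, and over 14 of them from 5.99e-07 to 0.00141 for Cxcl12. For C3 they ranged from 2.01e-04 to 1.0 and for Csf1 from 1.11e-04 to 0.0342.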

How the results depend on the processing

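The number of genes past both thresholds stayed within 1.5 times its reported value under every alternative run, in each of the 5 comparisons. With 1 library left out it ranged from 1341 to 1747 for passage in primed cells, 152 to 175 in naïve cells, 1006 to 1171 for the interaction, 2882 to 3225 for primed against naïve at P5 and 2946 to 3137 at P15. Of the values of the 10 genes past the threshold, 2 changed direction, both after taking off feeder RNA: the C3 interaction (−0.034, median ratio) and Cxcl12 between primed and naïve cells at P15 (0.073, lowest ratio), and the subtraction's own construction lowers genes abundant in MEFs. With 1 library left out, values that had not passed changed sign for Cxcl1 in primed passage (−0.042 to 0.069), Il6 between the states at P15 (−0.15 to 0.14) and the Saa3 (−0.72 to 1.04) and Lcn2 (−0.70 to 2.30) interactions. Library size alone turned the Cxcl1 (−0.097) and Il6 (0.079) values too, and taking off feeder RNA the Il6 (0.025, median ratio) and Lcn2 values (−0.52 and −0.70). Further calls changed for C3 (in primed passage, no filter gave adjusted p = 0.0373, the fit of 8 libraries 0.0140, DESeq2 0.0392 and the median ratio 0.695, and in naïve passage C3 passed under 4 settings), Cxcl1 in naïve cells (no filter 0.0135, median ratio 0.0149) and Csf1, which fell in primed cells with library size alone (−0.23, adjusted p = 2.16e-04) and passed in naïve cells with the block (0.13, adjusted p = 0.00771). Beyond the reasons given, the cause was not tested. Library size alone shifted the median of all genes by −0.13 in primed passage, −0.11 in the interaction, 0.20 in primed against naïve cells at P5 and 0.10 at P15, and changed the calls at P5 from 2222 higher and 1458 lower to 2863 and 1083. Replicates share only a number, with correlations of deviations of 0.17 (naïve) and 0.16 (primed) between passages and −0.13 and −0.19 between states. The replicate block gave 1923, 229, 1164, 3663 and 3369 genes in these 5 comparisons, against 1853, 178, 1212, 3680 and 3646, and crossed pairs, chosen after seeing the data, 3691 and 3647 for the last pair. No low-count filter gave 121 genes in naïve passage and the median ratio 247. Depth limits Lcn2, Saa3 and C3 in naïve cells, which rest on 0 to 33 counts per library, and 1 MEF library gives no spread.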
